A study of Mus musculus with 35 samples.

Results

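Variation between individual embryos was described in 6 water-injected intact 2C embryos, which were chosen by their labels as the single control embryos with both blastomeres and make up 6 of the 35 samples of the series. They are called here by the number of their library index, U85, U86, U87, U93, U94 and U95, which are replicates 1 to 6 of the control group, and values are always given in this order. All were wild-type C57BL/6NRj embryos from superovulated females of 3 to 4 weeks, fertilised in vivo, frozen as zygotes, thawed, and injected with nuclease-free water 1 to 2 h after division. Total RNA of each embryo was sequenced 5.5 to 8 h after division, in S phase, after the zona pellucida had been removed. Embryos of several females were pooled, the mother and the hour of division of each embryo are not given in the sources used here, and each embryo is a sample of its own. The groups set beside them were 10 water-injected control zygotes, 5 intact 2C embryos injected with Kdm5b-yfp mRNA, and, for a list definition, 10 zygotes injected with the same mRNA. The alternatives with all 15 2C samples and with another list definition also used pools of blastomeres from different embryos. Of these pools 3 were water-injected, and the fit of all 15 also held a pool injected with Kdm5b-yfp mRNA.

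The early 2C embryo of the mouse lives on transcripts stored in the oocyte while it destroys them, ahead of the main wave of embryonic genome activation (EGA). Among the earliest transcripts to appear are those of the endogenous retrovirus MERVL, whose LTR is called MT2_Mm, and of multicopy gene families such as Zscan4, Usp17l and Tdpoz. Since such changes run within hours, embryos that are treated alike can differ in how far each has gone.

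The libraries held from 8705584 to 12877962 gene counts per embryo. The embryos fall into 2 runs of index numbers, U85 to U87 and U93 to U95, which, in strips of 8 tubes, are strips 11 and 12. That each run was also handled as a strip is inferred from the numbers only. Depth moved with the strip, with totals of 11713392 to 12877962 in strip 11 and 8705584 to 10287618 in strip 12. U86 and U87 stood apart from all the other intact 2C embryos, since only 11840 and 12154 genes had a count in them, against 13854 to 15132 in the other 4 and 14291 to 14866 in the intact Kdm5b 2C embryos, although U86 was the deepest of the 6. Of the genes averaging at least 50 counts, 61 were at 0 in U86 and 49 in U87, against 0 to 14 in the other 4 and 0 to 2 in control zygotes. Each pair of embryos differed by far more than sampling noise, with a chi-square of their gene counts of 44.9 to 124 per degree of freedom, so none is the same library deposited again. Separately amplified libraries of one sample could differ as much. Cumulus cell markers had a summed level of 93.2 to 196 CPM (counts scaled to a common library size, with TMM normalization) over 21 genes. Of these 21, 4 averaged at least 50 counts, among them Serpine2, given further on. Ptx3, Amh, Inhbb and Cd44 were at 0 in all 6. Kdm5b itself, the gene the study injected elsewhere, was at 33.1, 72.2, 60.2, 154, 52.7 and 180 CPM in these water-injected controls, highest in U93 and U95.

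The most abundant transcripts were compared as TPM, in which counts are divided by exon length and scaled to the same sum in each embryo. The 20 highest together held 14.0%, 14.2%, 14.9%, 19.4%, 16.7% and 20.6% of all TPM, 16.6% ± 2.78 on average (SD, n = 6). Highest of all was Rn7sk, the 7SK RNA that holds the elongation factor P-TEFb inactive, with 25900 ± 8320 TPM. Its level was 19400, 17100 and 19600 TPM in strip 11 and 32100, 29900 and 37300 TPM in strip 12, so the strips did not overlap. Some genes described below did not overlap either. The share of all genes without overlap between strips is not given here, so nothing is concluded from it for single genes. Zbed3, a maternal factor of the oocyte and early embryo, followed with 20600 ± 3870 TPM, and CYTB, the mitochondrial cytochrome b, with 17200 ± 6490 TPM.

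Of these 20 transcripts, 6 are mitochondrial and 3 take part in the turnover or maturation of other RNAs: Btg4, the adaptor that brings the CCR4-NOT deadenylase to maternal mRNAs, with 6860 ± 782 TPM, Mphosph6, a protein associated with the RNA exosome, with 10500 ± 1500 TPM, and Rpph1, the RNA of RNase P, with 8590 ± 2470 TPM. The list also held Hist1h1a, a linker histone, at 6710 ± 1180 TPM, Dppa3, a maternal factor that protects DNA methylation, at 4500 ± 685 TPM, Spin1, a reader of histone methylation, at 3820 ± 369 TPM, and Obox5, an oocyte homeobox gene, at 3650 ± 522 TPM. The remaining members were C86187, D6Ertd527e, E330034G19Rik, Rbm38 and Trim61, at mean levels of 3050 to 6850 TPM.

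The abundant transcripts differed in how evenly the embryos carried them. The coefficient of variation (CV, the SD divided by the mean, here of CPM) was smallest for Spin1, at 9.88%, and Btg4, at 12.6%. It was largest for the mitochondrial ND4, at 46.0%, and ND1, at 45.8%. ND4 stood at 2830, 2860, 2400, 5740, 4080 and 7240 TPM, so that all 3 embryos of strip 12 lay above all 3 of strip 11, with U95 on top. D6Ertd527e went the other way, at 5580, 5250 and 4650 TPM in strip 11 and 3070, 3030 and 3110 TPM in strip 12. None of the 20 passed the thresholds of the test between strips described further on. CYTB came closest, with a log2 difference of 0.95 (edgeR adjusted p = 0.0501).

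**Figure D1:**
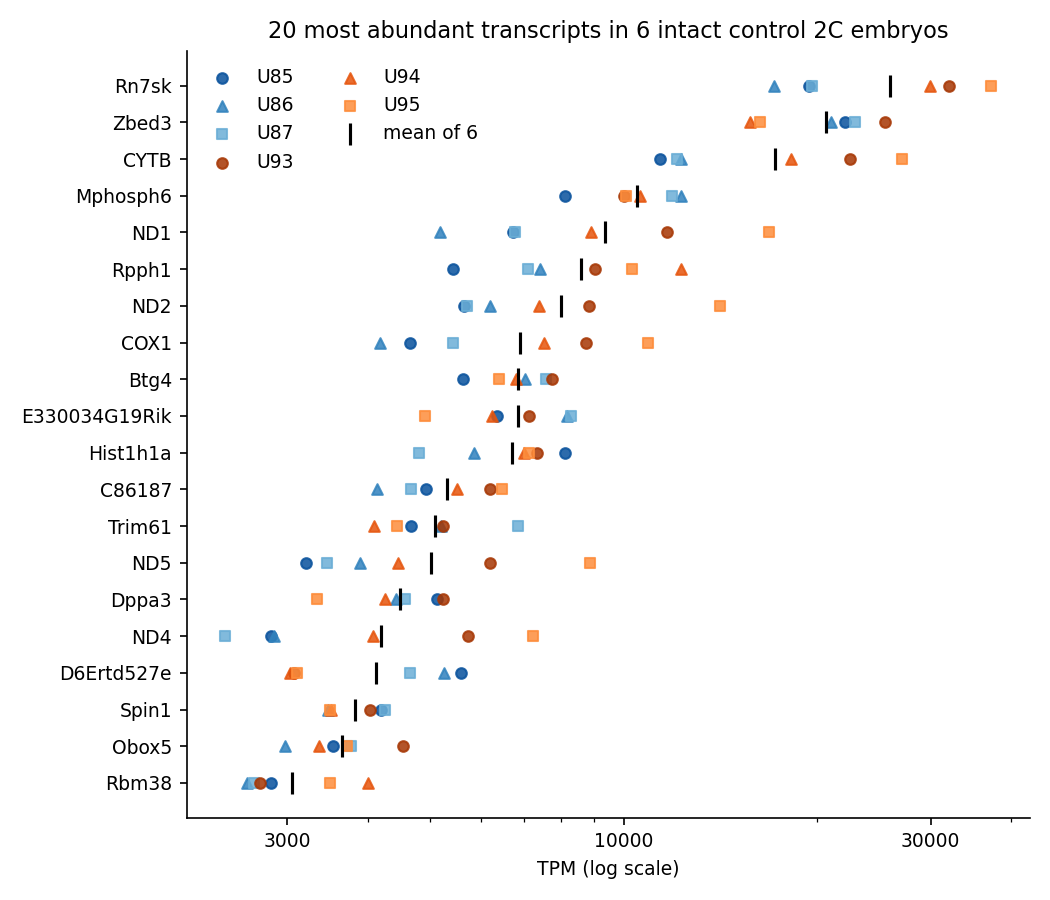
TPM of the 20 most abundant transcripts (log scale) in each of the 6 embryos, with a vertical mark at the mean; blue symbols are strip 11 and orange symbols strip 12. Rn7sk and the 6 mitochondrial transcripts lie higher in the 3 orange embryos, while Spin1 and Btg4 are nearly level.

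Because the CV falls as expression rises, each gene was set against genes of its own level. The CV of a gene was divided by the median CV of the genes nearest to it in mean CPM, 100 on each side, for the 8888 genes averaging at least 50 counts. The median CV of these genes was 33.0%, while counting error alone gives 14.1% at the lowest mean used. A ratio of at least 2 was reached by 428 genes, which is 4.82% of those examined. This ratio is a description of 6 embryos and carries no test.

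**Figure D2:**
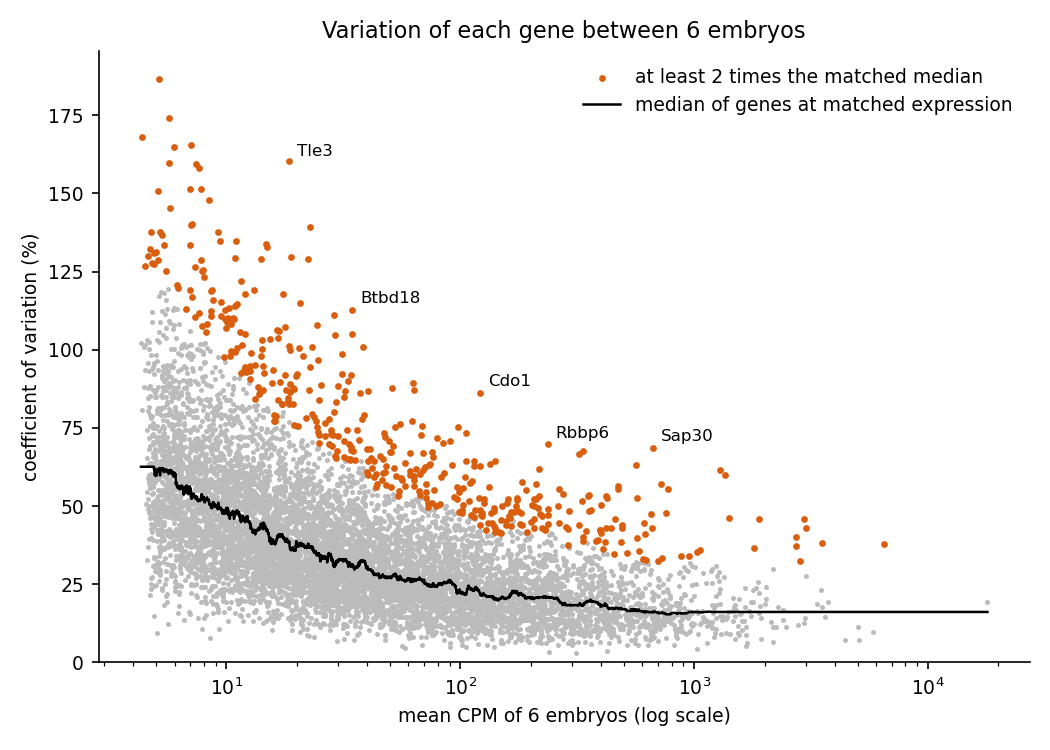
Coefficient of variation between the 6 embryos (%) against mean CPM (log scale) for 8888 genes, with the median at matched expression as a line and the 428 genes at 2 or more times that median in orange. Sap30 stands out at high expression, and Tle3 and Btbd18 among genes of low level.

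Sap30, a subunit of the Sin3 histone deacetylase complex, had the highest ratio, 4.28. The gene spans chr8:57482702-57487860 in mm10. It lay at 707, 1220, 1200, 350, 339 and 174 CPM, with all of strip 11 above all of strip 12. A group of abundant transcripts shared this order. Kdm2b, a demethylase of histone H3 lysine 36, was at 1190, 1180 and 853 CPM in strip 11 and at no more than 502 CPM in strip 12 (ratio 3.61). Slbp, which binds the stem-loop of histone mRNAs, was at 1170, 1200, 1080, 512, 430 and 234 CPM (ratio 3.6), and Bms1, a GTPase of ribosome assembly, at 534, 584 and 418 CPM in strip 11 and at no more than 143 CPM in strip 12 (ratio 3.56). E330021D16Rik, at 1700, 2060, 2290, 1230, 480 and 350 CPM (ratio 3.71), had its lowest values in U94 and U95. Slbp and Bms1 belong to the genes cleared from zygote to 2C embryo in the definition given further on, and the other 3 of these 5 did not pass it.

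Other genes were high in a single embryo or a pair. Tle3, a Groucho corepressor, reached 78.3 CPM in U95 and 1.38 to 14.2 CPM in the other 5 (ratio 4.16). B020004J07Rik stood at 85.3 CPM in U93 and 0.472 to 24.5 CPM elsewhere, and P4ha2, a prolyl hydroxylase of collagen, at 88.1 CPM in U93 and 2.59 to 28.8 CPM elsewhere. Gm9 reached 66.3 CPM in U95 against 0.57 to 22.6 CPM in the rest. Of these 4 genes, all are activated from zygote to 2C embryo.

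The pair U93 and U95 was high together for a further set. Rbbp6, a ubiquitin ligase, was at 94.3, 153, 145, 443, 130 and 452 CPM (ratio 3.36). Tceb3, which encodes elongin A, was at 27.5, 110, 37.9, 167, 42.3 and 200 CPM (ratio 3.38), and Btbd18, a BTB-domain regulator known from germ cells, at 6.35, 7.37, 8.41, 100, 21.2 and 62.5 CPM (ratio 3.67). Tdpoz1, of the TD and POZ domain family expressed in early embryos, was at 2.28, 6.34, 12.3, 34.1, 3.07 and 76.1 CPM (ratio 3.41). Gm2027 was at 4.64, 14.0, 43.1, 100, 6.25 and 38.0 CPM, so that U93 stood highest and U87 lay just above U95.

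A last set was highest in U94. Lsm14b, a protein of oocyte RNA granules, was at 681, 652, 376, 229, 1170 and 260 CPM (ratio 3.73). Igf2bp2, an RNA-binding protein of maternal origin, was at 405, 231, 228, 146, 759 and 230 CPM (ratio 3.70). In both, U93 was the lowest embryo. AU022751 ran opposite, with 2710 CPM in U93 and 454 CPM in U94. Cdo1, a cysteine dioxygenase, and Hist1h4d, a histone H4 gene, were set apart by U86 and U87: Cdo1 was at 315 CPM in U86 and 4.74 CPM in U87, and Hist1h4d at 0.872 and 3.04 CPM in this pair against 20.5 to 89 CPM in the other 4. Tchh, the gene of trichohyalin, ran from 4.48 CPM in U94 to 164 CPM in U87.

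**Figure D3:**
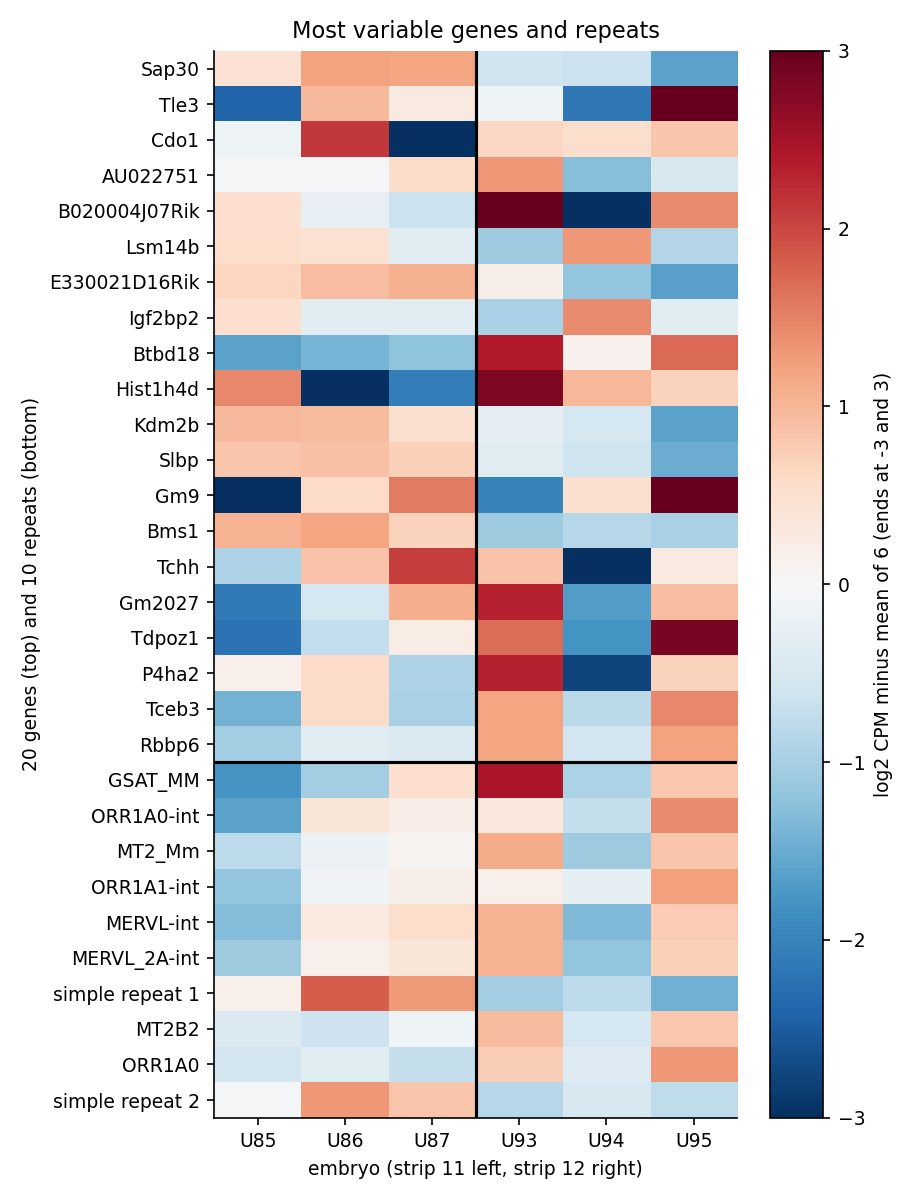
Heat map of log2 CPM minus the mean of the 6 embryos for the 20 genes (top) and 10 repeats (bottom) with the highest ratios, in order of ratio; the vertical line parts the strips and colours end at 3 on the log2 scale. Sap30, Kdm2b, Slbp and Bms1 follow the strips, whereas MERVL-int and MT2_Mm are lowest in U85 and U94.

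The same genes were examined in embryos that had no part in choosing them. Of the 428 genes, 382 had a mean of at least 50 counts in the 5 intact Kdm5b 2C embryos, and 181 of these, 47.4%, had a ratio of at least 2 there, against 6.87% of all 8643 genes examined in that group. In the 10 control zygotes 299 could be examined and 40 of them, 13.4%, reached this ratio, against 2.73% of all genes. Slbp had a ratio of 4.47 in the Kdm5b 2C embryos and 1.03 in control zygotes, and Kdm2b of 4.77 and 1.28. In the control 2C embryos 84.7% of the variance of Slbp and 77.3% of that of Kdm2b lay between strips, as measured further on. The Kdm5b 2C embryos were prepared on the same day and also fall in strips 11 and 12. The groups are therefore not independent of strip, and its part in the shared genes was not tested. AU022751 exceeded 2 in all 3 groups, at 3.81, 4.01 and 3.33.

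Without U86 and U87 the remaining 4 embryos gave 851 genes at a ratio of at least 2, of which 344 were among the 428. Of the 20 genes named for their ratio, 19 kept a ratio of at least 2 there, and Cdo1 had 1.33. Single embryos carried some of these ratios. Without U95 the ratio of Tle3 was 1.44, without U93 that of P4ha2 was 1.62 and that of B020004J07Rik 1.92, and without U94 that of Igf2bp2 was 1.90. The embryos were also unequal in how often they were highest. U86 was the highest embryo for 102 of the 428 genes, U95 for 101 and U93 for 92, against 30 for U87. U93 or U95 was highest for 45.1% of the 428 and for 30.6% of all genes examined. For U86 and U87 the share over all genes is not given here, so their counts stand without a baseline.

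Repeats were examined in the same way. Of 1657 repeats with a mean of at least 50 estimated counts, 94, or 5.67%, had a CV at least 2 times that of repeats at matched expression. Simple repeats made up 72 of these 94 and 53.7% of the repeats examined, so that 8.09% of simple and 2.87% of other repeats reached this ratio. The highest ratio, 7.34, belonged to GSAT_MM, the major satellite of pericentromeric heterochromatin, with estimated counts of 1251, 2135, 5278, 22613, 1460 and 6032. Its level was 192, 317, 929, 3540, 341 and 1140 CPM of repeat counts, 18.4-fold higher in U93 than in U85. GSAT_MM had a ratio of 15.0 in the Kdm5b 2C embryos and 3.32 in control zygotes. The most abundant repeats, GSAT_MM among them, were all set against the same block at the top end (median CV 16.0%), so their expression was matched only loosely.

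MERVL transcripts followed. MERVL-int, the internal part of the retrovirus, was at 38600, 116000, 136000, 197000, 38200 and 161000 CPM of repeat counts, a ratio of 3.54 and 5.16-fold from lowest to highest. This is 5.04%, 10.7%, 11.7%, 19.2%, 3.96% and 15.2% of all repeat counts, where control zygotes lay between 0.0259% and 1.28% and the Kdm5b 2C embryos between 2.38% and 9.35%. MT2_Mm, its LTR, was at 3570, 5470, 6470, 13400, 2930 and 10900 CPM, and MERVL_2A-int at 1240, 2880, 3310, 5310, 1130 and 4210 CPM. All 3 were lowest in U85 and U94 and highest in U93 and U95, so their order cut across the strips. Reads shared by copies of one repeat family are divided among its entries by an estimate, so related entries such as these are not independent of each other.

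Of the ORR1A repeats, LTRs of the MaLR family and their internal parts, 3 were among the 10 highest ratios. ORR1A0-int was at 488, 1890, 1690, 1850, 905 and 3970 CPM (ratio 4.19), ORR1A1-int at 230, 479, 574, 564, 417 and 1200 CPM (ratio 3.61), and ORR1A0 at 116, 132, 103, 282, 130 and 423 CPM (ratio 3.01), each highest in U95. ORR1A1 and ORR1A2 had ratios of 1.53 and 1.07. MT2B2, an older LTR related to MT2_Mm, was at 279, 245, 344, 727, 261 and 662 CPM (ratio 3.07). The MT repeats, MaLR elements abundant in oocytes, had ratios under 2. MTA_Mm-int was at 185000 to 326000 CPM, with a ratio of 1.58, and MTA_Mm at 55700 to 72500 CPM, with 0.586. MTB_Mm, MTC and MTD had 0.995, 0.986 and 0.653. The remaining members of the 10 highest ratios were a simple repeat of a 10-base unit (ratio 3.26) and (AGATGGA)n (ratio 2.98). Both were highest in U86, and without U86 and U87 their ratios were 1.81 and 1.40.

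Genes whose transcripts rise or fall from zygote to early 2C embryo were defined in other embryos, by comparing the 5 intact Kdm5b 2C embryos with the 10 Kdm5b zygotes in edgeR. They are called activated and cleared here. Since the 2C embryos were collected before the usual time of EGA, the activated list is not a list of genes of its main wave. Of 12594 genes, 1227 (9.74%) were activated and 1979 (15.7%) cleared, at thresholds of 0.05 on the adjusted p and 1 on the absolute log2 fold change. Stage cannot be told apart from the day of library preparation and from freezing in this definition. Among the 6 embryos, 783 activated and 1374 cleared genes had a mean of at least 50 counts. A ratio of at least 2 was reached by 148 activated genes, 18.9% of them, by 85 cleared genes, 6.19%, and by 182 of the 6696 genes that were neither, 2.72%. The median CV was 55.4% for activated, 39.8% for cleared and 29.9% for the other genes.

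By abundance, the activated list was led by Rn7sk, CYTB and ND1, described above. CYTB and ND1 are mitochondrial, as are only 7 of the 783 activated genes averaging at least 50 counts, so these members do not stand for the list. Cleared genes of highest TPM were Slbp, also described above, Npm2, the oocyte nucleoplasmin, at 538, 699, 608, 350, 502 and 395 CPM, and Obox2, an oocyte homeobox gene, at 651, 505, 648, 355, 251 and 229 CPM. Obox2 did not overlap between strips, but did not pass the test between strips described further on (edgeR adjusted p = 0.0844).

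A score was made for each list as the mean over its genes of log2 CPM minus the mean of the 6 embryos. The activated score was -0.52, -0.21, -0.34, 0.50, -0.19 and 0.75, so that U93 and U95 stood apart from the other 4. The cleared score was 0.40, 0.15, -0.04, -0.09, -0.19 and -0.23, highest in U85 and lowest in U95. U85 was thus the embryo with the lowest activated and the highest cleared score, and U95 the reverse. U94 had nearly as low a cleared score as U95 while its activated score was close to that of U86.

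Across the 6 embryos the activated score ran against the cleared score with Pearson's r = -0.68 (exact permutation p = 0.113, adjusted over 6 relations p = 0.17) and Spearman's rho = -0.89 (exact p = 0.0333, adjusted p = 0.0666). Without U93 and U95, the embryos farthest from the median of the activated score, r was -0.77. The relation did not pass the adjustment. With the strip means removed from both scores and embryos permuted within strips (36 arrangements, smallest possible p = 0.0278), r was -0.18 (exact permutation p = 0.5, adjusted over 6 relations p = 0.75).

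The activated score was also set against other measures. With the share of counts on mitochondrial genes, 1.40%, 1.41%, 1.44%, 2.73%, 2.06% and 3.61%, it gave r = 0.96 (exact permutation p = 0.00417, adjusted p = 0.025) and rho = 0.94 (exact p = 0.0167, adjusted p = 0.0666). Without U93 and U95, r was 0.56, so this relation rests on those embryos. Of the 783 genes in the score 7 are mitochondrial, and r was also 0.96 without them. With the strip means removed r was 0.90 (exact permutation p = 0.25, adjusted p = 0.75), so the relation did not pass within strips. With the 2-cell genes from the literature in place of the activated list it was 0.43 (exact permutation p = 0.401). With the summed level of MERVL-int and MT2_Mm, r was 0.69 (exact permutation p = 0.11, adjusted p = 0.17, rho = 0.54 with exact p = 0.297 and adjusted p = 0.297) and 0.25 without U93 and U95. With total count it was -0.61 (exact permutation p = 0.221, adjusted p = 0.221, rho = -0.66 with exact p = 0.175 and adjusted p = 0.262) and -0.41 without that pair, and with the replication-dependent histones 0.55 (exact permutation p = 0.217, adjusted p = 0.221, rho = 0.60 with exact p = 0.242 and adjusted p = 0.29) and -0.36. With the strip means removed these 3 values of r were 0.87 (exact permutation p = 0.111, adjusted p = 0.667), 0.41 (exact p = 0.667, adjusted p = 0.8) and 0.06 (exact p = 0.806, adjusted p = 0.806).

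The cleared score ran in the same direction as depth, with r = 0.82 against the total count (exact permutation p = 0.0444, adjusted p = 0.133, rho = 0.89 with exact p = 0.0333 and adjusted p = 0.0666), and 0.95 without U85 and U86. With the strip means removed r was 0.38 (exact permutation p = 0.5, adjusted p = 0.75). This relation did not pass the adjustment either, and depth did not overlap between strips.

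**Figure D4:**
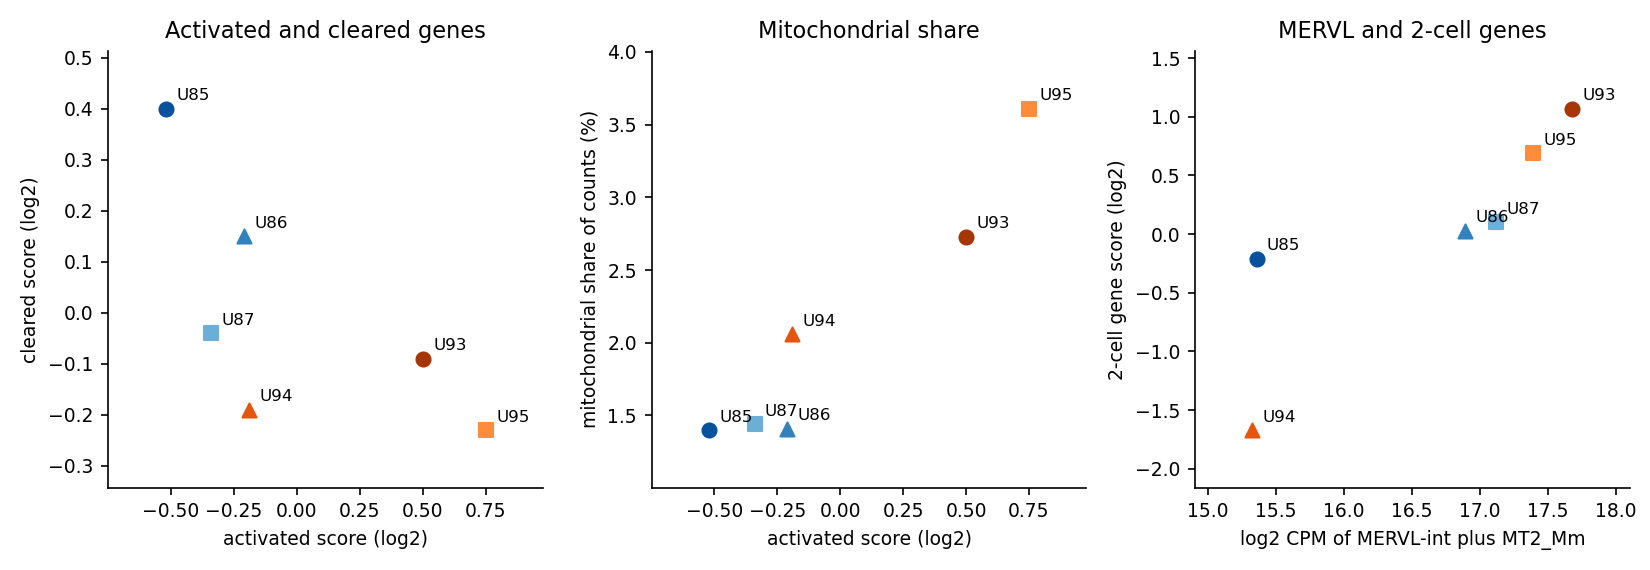
Each point is an embryo (blue, strip 11; orange, strip 12). Left, cleared against activated score (both mean log2 CPM relative to the 6 embryos); middle, mitochondrial share of gene counts (%) against activated score; right, score of the 2-cell genes against log2 CPM of MERVL-int plus MT2_Mm. U93 and U95 lie far to the right in the left and middle panels, and U94 lies lowest in the right panel.

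Genes followed their own lists to different degrees. Of the 783 activated genes 686, or 87.6%, correlated positively with the score of the remaining activated genes (median r 0.55), and of the 1374 cleared genes 1124, or 81.8%, did so with theirs (median r 0.46). These are correlations of genes in the same 6 libraries, and genes are not independent. The share of all genes that correlated positively with either score is not given here, so both percentages stand without a baseline. The closest to the activated score were Npat, an activator of histone gene transcription (r = 0.993), Arfgap2, a regulator of Golgi traffic (0.985), the mitochondrial ND5 (0.983), Polr1c, a subunit shared by RNA polymerases I and III (0.983), and Rbbp6 (0.978). Npat was at 52.5, 62.4, 52.9, 93.6, 61.7 and 115 CPM. Closest to the cleared score were Ncaph, a condensin subunit (0.991), Oog4, an oocyte gene of the PRAME family (0.989), Acot9, an acyl-CoA thioesterase (0.988), Polr3a, the largest subunit of RNA polymerase III (0.983), and Aspm, a spindle pole protein (0.975). Oog4 was at 242, 156, 86.8, 76.9, 70.9 and 52.9 CPM, highest in U85 and lowest in U95.

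Promoters of the 3 nuclear genes nearest to the activated score are shown because their levels moved together. Each runs from 250 bases before to 50 bases after the RefSeq start in GRCm38.p6, 5′ to 3′ on the gene's strand: Npat at chr9:53536797-53537096 (plus), Arfgap2 at chr2:91264865-91265164 (plus) and Polr1c at chr17:46247996-46248295 (minus). Capitals mark matches to CCAAT, the box bound by NF-Y, on either strand (CCAAT or ATTGG).
Npat: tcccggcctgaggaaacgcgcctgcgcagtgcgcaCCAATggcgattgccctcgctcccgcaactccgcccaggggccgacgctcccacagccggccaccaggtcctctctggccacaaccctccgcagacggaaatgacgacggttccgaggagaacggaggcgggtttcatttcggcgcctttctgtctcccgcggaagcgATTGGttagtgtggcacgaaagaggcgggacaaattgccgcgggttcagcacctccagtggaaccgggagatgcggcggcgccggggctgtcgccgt
Arfgap2: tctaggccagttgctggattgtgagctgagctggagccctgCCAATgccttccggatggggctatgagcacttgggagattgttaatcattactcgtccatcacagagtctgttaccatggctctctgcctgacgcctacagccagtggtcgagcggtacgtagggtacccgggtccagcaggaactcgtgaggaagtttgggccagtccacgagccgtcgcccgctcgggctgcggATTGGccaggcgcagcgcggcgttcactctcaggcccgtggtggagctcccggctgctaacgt
Polr1c: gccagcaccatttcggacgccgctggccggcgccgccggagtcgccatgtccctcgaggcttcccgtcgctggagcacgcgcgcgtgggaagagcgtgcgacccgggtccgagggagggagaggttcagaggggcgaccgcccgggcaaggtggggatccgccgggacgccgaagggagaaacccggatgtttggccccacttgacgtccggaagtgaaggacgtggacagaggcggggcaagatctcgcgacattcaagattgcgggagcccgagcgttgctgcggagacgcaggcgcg
Npat and Arfgap2 each held 2 such matches and Polr1c 0. CCAAT was found in 40.9% of the 563 activated genes with a promoter in the table, in 42.8% of 1055 cleared genes and in 37.9% of all 27025 promoters. TATAAA, searched on both strands as TATAAA or TTTATA, was found in 7.64% of activated, 7.3% of cleared and 14.2% of all promoters, and TAATCC, the core bound by homeodomains of the Obox type, searched as TAATCC or GGATTA, in 7.64%, 6.35% and 7.16%. These shares were not tested. Both lists were limited to genes averaging at least 50 counts and the 27025 promoters were not, so the sets are not alike.

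Lists of genes known from the literature give the same embryos another order. Of the 40 genes of the 2-cell list, 32 had a mean of at least 50 counts, and their score was -0.21, 0.03, 0.10, 1.07, -1.67 and 0.69. U94 was lowest for 20 of the 32, and U93 or U95 highest for 25. Of all 8888 genes, 30.6% were highest in U93 or U95, while the share lowest in U94 is not given here. The order of the embryos by this score was that of the MERVL level without exception, which was noticed after the values were seen (r = 0.85). Since the list holds families that appear as early as MERVL, such a likeness was partly built in. A ratio of at least 2 was found for 11 of the 32.

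Within this list Zscan4d, of a family that keeps telomeres, was at 51.3, 67.6, 56.8, 88, 10.3 and 55.7 CPM. Usp17lc, a deubiquitinase gene of a multicopy family, was at 84.2, 185, 143, 214, 51.1 and 82.9 CPM. Both had their lowest value in U94. U85, which was as low in MERVL, was next lowest in Zscan4d, close to U95 and U87, and within the range of the other 4 in Usp17lc. Zfp352, a zinc finger gene known for its expression in 2C embryos, was at 57.8, 67.8, 76.6, 186, 57.9 and 183 CPM. Gm5662 was at 21.8, 46.1, 73.6, 114, 25.4 and 106 CPM, and its correlation with the MERVL level was 0.97. Members of these families are near-identical copies, and fragments that map to several of them were not counted, so single members are uncertain.

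Of the 39 maternal oocyte genes, many ran against the MERVL level. Of the 36 with a mean of at least 50 counts, 7 had a correlation below -0.8 with the MERVL level and 0 above 0.8, where 4.49% and 3.74% of all 8888 genes did. The median correlation of the 36 was -0.48, and 9 of them, among them Btg4 (0.60), Omt2b (0.52) and Trim61 (0.51), had a positive one. The genes described next are among those of negative correlation. Gdf9, an oocyte growth factor, was at 580, 257, 221, 241, 599 and 205 CPM, with U85 and U94 above the others by a wide gap. Zar1, which holds maternal mRNAs in store, was highest in U94 and U85, at 202 and 190 CPM, and lowest in U95, at 59.9 CPM. Kit, a receptor kinase, was at 473, 335, 326, 307, 551 and 338 CPM. Nlrp14, an oocyte NLR protein, was highest in U85, at 979 CPM, and next in U94, at 508 CPM, against 272 to 383 CPM in the other 4. H1foo, the oocyte linker histone, was at 241, 215, 125, 88.9, 231 and 88.6 CPM.

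Over all genes the correlation with MERVL was positive for 74.7% of activated, 34.6% of cleared and 44.9% of other genes. It was above 0.8 for 100 of 783 activated genes (12.8%), 23 of 1374 cleared genes (1.67%) and 200 of 6696 other genes (2.99%). It was below -0.8 for 9, 52 and 338 genes, or 1.15%, 3.78% and 5.05%, so that strongly negative values were no more frequent among cleared genes than among the others. Of the 20 most variable genes, Igf2bp2 had r = -0.93 and Lsm14b r = -0.89. On the positive side Gm2027 had r = 0.94, Tdpoz1 0.88, Tchh 0.81 and Rbbp6 0.80. These are descriptions over the same 6 libraries.

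Further lists are given by how many genes had a ratio of at least 2, which 4.82% of all genes did. Of 39 replication-dependent histone genes, 2 did, or 5.13%, and their score was 0.34, -0.55, -0.87, 0.56, 0.10 and 0.41, lowest in the embryos with few genes counted. The part of those libraries' low number of counted genes in this was not tested. Of 66 ribosomal protein genes 5 did, or 7.58%, with a score of -0.24, -0.31, -0.30, 0.44, -0.17 and 0.57, again highest in U93 and U95. Among heat shock genes 4 of 14 did, led by Hsp90ab1, a cytosolic chaperone, at 428, 797, 732, 499, 268 and 103 CPM (ratio 3.25), and Hsp90aa1 at 743, 1130, 826, 543, 377 and 295 CPM (ratio 2.95). Of 15 p53 and stress genes 2 did, Mdm2, the ubiquitin ligase of p53, at 137, 162, 130, 77.2, 277 and 117 CPM, and Sesn2, a stress-induced sestrin, at 7.82, 7.61, 16.7, 45, 26.9 and 60 CPM. Of 6 Obox genes 3 did, with Obox3 at 35.5 CPM in U93 and 42.2 CPM in U95 against 3.94 to 7.77 CPM in the other 4. Of the 8 mitochondrial transcripts with enough counts 6 did, with a median ratio of 2.43. None of the 5 immediate early genes and not the only sperm transcript with enough counts did, nor any Y-linked gene, since none reached a mean of 50 counts, and of 4 cumulus cell markers Serpine2, a secreted serpin, did, at 41.0 to 172 CPM.

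How much of the variation lies between strips was measured per gene as the sum of squares between strips over the total. The median share was 19.6% of the variance over 8888 genes and the mean 27.0%. A grouping unrelated to the values gives a mean of 20.0%, which compares with the mean share and not with the median. For repeats the median was 17.1% and the mean 23.9%. Cleared genes had a median share of 28.8%, activated genes of 23.4%, and genes of neither class of 17.8%. Among the 428 most variable genes the median was 30.4%, and 49 of them, 11.4%, had over 80% of their variance between strips, against 3.81% of all genes. The leading principal component of the 6 embryos, with 32.9% of the variance, was set by U86, and the next, with 25.2%, by U87. Strips took 56.5% of the first and 21.1% of the next.

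Strips were compared gene by gene in edgeR, as U93 to U95 minus U85 to U87. Of 11975 genes tested, 2 (0.0167%) were higher and 12 (0.1%) lower in strip 12 at the thresholds used above, and 1138 had an unadjusted p under 0.05, where 599 is 5% of those tested. Bms1 fell by 1.95 on the log2 scale (SE 0.20, edgeR adjusted p = 0.00467), from 512 to 133 CPM on average. It lies at chr6:118383381-118419417 in mm10. Prpf6 and Sf3a1, both parts of the spliceosome, fell by 1.85 (SE 0.25, adjusted p = 0.0359) and by 1.56 (SE 0.23, adjusted p = 0.0472). Prpf6 was at 176, 188, 133, 44.7, 54.2 and 38.8 CPM, and Sf3a1 at 311, 287, 257, 107, 112 and 71.9 CPM.

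Gigyf2, a repressor of translation, dropped by 1.36 (SE 0.21) and Sap30 by 1.86 (SE 0.29), both with an edgeR adjusted p = 0.0472. Others that were lower were Spty2d1 and Nasp, both histone chaperones, Msh6, of DNA mismatch repair, Rgs2, a regulator of G-protein signalling, Mphosph8, of the HUSH silencing complex, Slbp and A430033K04Rik. Cggbp1, which binds CGG repeats, rose by 3.20 (SE 0.45, edgeR adjusted p = 0.0359), with 2.69, 4.36 and 4.65 CPM in strip 11 and 28.2, 43.7 and 35.8 CPM in strip 12, and Btbd18 rose by 3.05 (SE 0.51, adjusted p = 0.0472). Cggbp1 lies at chr16:64852085-64859491 and Btbd18 at chr2:84659079-84668781. Of the 12 lower genes 10 belong to the cleared list, and both higher genes to the activated list, where 15.1% of the genes tested were cleared and 9.7% activated. All 14 were among the 428 variable genes. The test and the CV ratio used the same embryos, and a large difference between strips by itself raises the CV. This overlap was therefore largely built in, and nothing is concluded from it.

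The number of calls changed with the embryos used. Without U85 or without U86 0 genes passed in edgeR, with 1629 and 963 at an unadjusted p under 0.05. The differences themselves stayed close, with Bms1 at -1.93 and -1.85 and Cggbp1 at 2.98 and 3.29 in these fits. Without U87 or without U95 1 did, without U93 45 did and without U94 41 did, and without both U86 and U87 0 passed, with 822 at an unadjusted p under 0.05 and Bms1 at -2.05 (edgeR adjusted p = 0.244). With the 5 intact Kdm5b embryos added to the fit 0 were higher and 6 lower, and DESeq2 called 71 higher and 121 lower. Depth and the mitochondrial share did not overlap between strips either, and their part in the differences was not tested.

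Of 2556 repeats tested between strips, 0 passed in edgeR (smallest adjusted p = 0.203), 158 had an unadjusted p under 0.05, where 128 is 5% of those tested, and DESeq2 called 7 higher and 15 lower. The smallest p among higher repeats belonged to (ATT)n, at 1500, 1420, 1380, 2690, 2360 and 3550 CPM (edgeR adjusted p = 0.203), and among lower repeats to the simple repeat of a 10-base unit. MERVL-int differed by 0.45 on the log2 scale (edgeR adjusted p = 0.98), with both extremes, U93 and U94, in the same strip.

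The overall spread of the 6 embryos was compared with that of other groups. For each sample the median over genes of the absolute deviation of log2 CPM from the mean of the rest of its group was taken, corrected for group size. It averaged 0.339 ± 0.0311 (SD, n = 6) in the control 2C embryos and 0.145 ± 0.0207 (SD, n = 10) in control zygotes, over 8377 genes. The difference of 0.194 had a two-sided exact permutation p = 0.000125, the smallest these group sizes allow (adjusted over 2 comparisons p = 0.00025). All 6 embryos lay above all 10 zygotes. Each value is measured from the rest of its own group, so the values within a group are not independent. The permutation p of spread, here and in the next paragraph, does not allow for this. Freezing, depth and the day of library preparation cannot be told apart from stage here, and zygotes were sequenced to 12597267 to 17797581 counts. With all samples thinned to the lowest total the difference was 0.182, and without U86 and U87 it was 0.152.

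Against the 5 intact Kdm5b 2C embryos, prepared on the same day, the means were 0.341 ± 0.0278 (SD, n = 6) and 0.254 ± 0.0222 (SD, n = 5) over 8396 genes, with a two-sided exact permutation p = 0.00216, the smallest possible (adjusted p = 0.00216). The single values on the scale of the zygote comparison were 0.319, 0.394, 0.343, 0.302, 0.337 and 0.338, highest in U86. Without U86 and U87 the difference from the Kdm5b embryos was 0.0469 (exact permutation p = 0.0238), smaller than the 0.0872 with all 6. The control embryos were 3 and 3 in strips 11 and 12, and the Kdm5b embryos 4 and 1, so differences between strips enter the spread of the controls more. Within strip 11 alone the 3 controls averaged 0.32 and the 4 Kdm5b embryos 0.252, with no overlap, and the difference of 0.0674 did not pass the threshold (two-sided exact permutation p = 0.0571, smallest possible 0.0286). The biological coefficient of variation that edgeR estimated was 0.401 in the 6 embryos, 0.384 without U86 and U87, 0.332 in the Kdm5b 2C embryos and 0.198 in control zygotes.

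Transcripts of the sex chromosomes divided the embryos without overlap. Counts over 10 Y-linked genes added up to 209, 0, 0, 198, 120 and 0, and counts of Xist, the RNA of the inactive X chromosome, were 0, 14, 9, 0, 0 and 11. U85, U93 and U94 thus had Y-linked transcripts and no Xist, and U86, U87 and U95 had Xist and no Y-linked transcript. Usp9y, a deubiquitinase, and Uty, a demethylase relative, were the highest Y-linked genes, Usp9y with 8.23, 6.97 and 6.25 CPM in U85, U93 and U94. A count of 0 still allows up to 3 counts. Each set held embryos of both strips, and the embryos with Y-linked transcripts included both the lowest (U94) and the highest (U93) in MERVL-int.

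**Figure D5:**
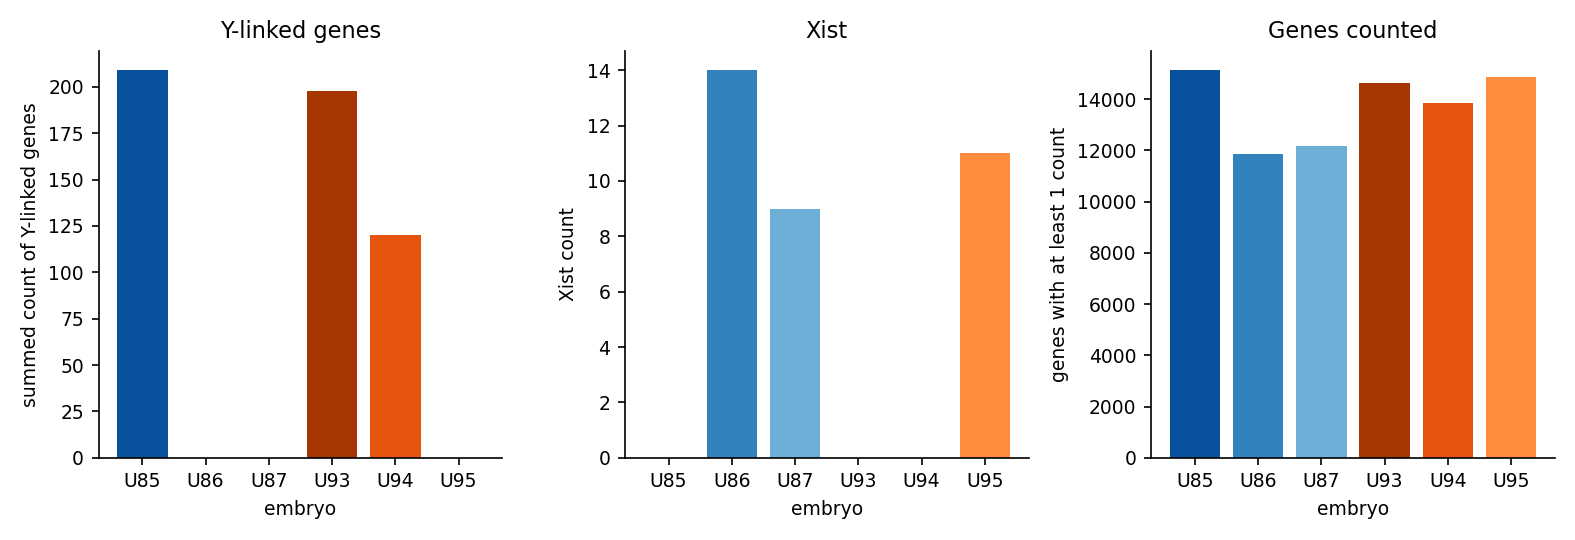
Counts in each embryo: left, summed over Y-linked genes; middle, Xist; right, number of genes with at least 1 count. Y-linked counts occur in U85, U93 and U94 and Xist counts in U86, U87 and U95, while U86 and U87 have the fewest genes counted.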

How the data were processed

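Total RNA of single mouse embryos was sequenced with a stranded SMART-Seq kit in 10 and 13 PCR cycles and without molecular identifiers. Per the labels and the study's methods, the authors trimmed reads with fastp 0.21.0, aligned them to GRCm38 (mm10) with STAR 2.7.3a and counted fragments per RefSeq gene with featureCounts 1.5.1. The deposited gene table holds raw counts of 24480 genes on the sense strand, with fragments that map to several places not counted. The deposited repeat table holds estimated counts of 18536 repeats from SalmonTE, of which 5.04% of values were not whole, and these were rounded here. Alignment and counting are the authors'.

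As in the study, the Kdm5b row was removed before normalization. Counts were normalized by TMM and tested with edgeR 4.0.16 in R 4.3.3 (quasi-likelihood test, filterByExpr with a minimum count of 10, Benjamini-Hochberg adjustment). Log2 CPM had a prior count of 2. CPM values used TMM library sizes, and TPM came from the counts and the deposited exon lengths. CV ratios, scores, and two-sided exact permutation tests were computed in Python 3.11.15 with numpy 2.4.6 and pandas 2.3.3. Figures were drawn with matplotlib 3.10.9. The edgeR test and the ratio were tested on simulated data. Promoter sequences are RefSeq's. The gene counts of 8705584 to 12877962 per embryo set the precision, and counts of amplified fragments cover counting error only.

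Genes named are the 20 of highest mean TPM, the 20 genes and 10 repeats of highest CV ratio, up to 5 genes each way between strips (with the other genes past the thresholds), members of fixed lists, the 3 most abundant activated and cleared genes, the 5 nearest to each score, and Kdm5b. The embryos, lists and rules were chosen with earlier results of these data known. The replicate numbers shared by the Kdm5b groups do not pair embryos, since same-numbered deviations correlated at -0.0777 to 0.0814. Alternatives were DESeq2 1.42.0 and its size factors, other count minimums, 401 neighbours, other measures of spread, other list definitions, and each embryo left out. Leaving out U86 and U87 together, using only genes counted in all 6 embryos, a MERVL level over gene counts, removing strip means from the relations, comparing spread within strip 11, and the alternatives of the relations other than activated against cleared were added after seeing the data.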

Additional observations from a re-analysis of the deposited data

Results flagged for a closer look

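In 6 of 78 sets of 6 embryos examined, an embryo stood far from the rest, with a gap to its nearest neighbour, as a share of the whole range, above Dixon's 95% critical value. Chance flags about 1 in 20 such sets, and many of these genes were named for their variation. U95 was the high embryo for Tle3, at 78.3 CPM against a next value of 14.2, for Gm9, at 66.3 CPM against 22.6, and for ORR1A1-int, at 1200 CPM of repeat counts against 574. U93 was the high embryo for B020004J07Rik, at 85.3 CPM against 24.5, for P4ha2, at 88.1 CPM against 28.8, and for GSAT_MM, at 3540 CPM of repeat counts against 1140.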

How the results depend on the processing

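The share of the 20 top transcripts was 8.92% by CPM in place of TPM, since CPM does not divide by length. The number of variable genes became 683 by the SD of log2 CPM and 851 without both replicates 2 and 3, U86 and U87. The number of variable repeats became 34 with simple repeats left out, which are fewer repeats to examine, and 142 without that pair. Genes past the thresholds between strips numbered 192 in DESeq2, 217 with no filter on low counts, 6 with the Kdm5b intact embryos added, 2 with all 15 2C samples, 0 without both replicates 2 and 3, and 0 to 45 with each embryo left out. Repeats between strips numbered 22 in DESeq2, 31 with no filter, and 0 to 3 with each embryo left out. The causes were not tested. The median strip share of variance ran from 18.7% to 27.7% with each embryo left out. A grouping unrelated to the values gives a mean of 25.0% in 5 embryos. That mean is not a yardstick for a median, and the median of such a grouping is not given here. The activated score against MERVL gave r = 0.85 with the literature lists (exact permutation p = 0.00139, the smallest possible). This alternative was added after seeing the data and its p was not adjusted. The 2-cell list holds families that appear as early as MERVL, such as Zscan4 and Usp17l. A positive r was therefore partly built in, and nothing is concluded from this p. The activated against the cleared score gave r = -0.86 by share of all counts (exact permutation p = 0.0306), -0.30 with genes of at least 10 counts, and -0.80 to -0.49 with each embryo left out. Shares of the same total tend to run against each other, so the negative r by share of all counts was partly built in. Its p was not adjusted, and nothing is concluded from it. The activated score against total count turned to 0.19 with the literature lists (exact permutation p = 0.75) and to 0.41 with the strip means removed (exact permutation p = 0.667). The activated score against the mitochondrial share had p = 0.075 (exact permutation) without U95, with r = 0.90, p = 0.401 with the literature lists, with r = 0.43, and p = 0.25 with the strip means removed, with r = 0.90. With the replicate block, 863 genes were activated and 1978 cleared. The spread against control zygotes kept its direction and its p under the threshold in all alternatives run, with differences of 0.152 to 0.204. Genes of low count, such as the Y-linked genes and Xist, lay below the minimum for the CV ratio and were given as counts only.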
